A study of Mus musculus with 6 samples.

Results

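The NRF2 antioxidant response genes described here are 10 genes, the transcription factor gene Nfe2l2 and 9 genes known as its targets (Hmox1, Gclc, Gclm, Slc7a11, Txnrd1, Srxn1, Nqo1, Gsta4 and Gstm1). They were taken by symbol from a table of 18112 genes, and all 10 were among the 12565 genes that passed a filter on low values. The study measured RNA in primary aortic vascular smooth muscle cells (VSMCs) of Smyd2 fl/fl mice and of Smyd2 SMC-/- mice, which also carry Tagln-Cre (SM22α-Cre). Smyd2 is the gene of the lysine methyltransferase SMYD2, and its exon 2 lies between loxP sites in the floxed allele. Each genotype had 3 libraries, numbered 1 to 3, and the comparison addresses what loss of Smyd2 does to gene expression in these cells. All mice were on the C57BL/6 strain, and the methods give an age of 8 to 10 weeks, an endothelium removed with a catheter and an adventitia removed after digestion. Tagln is also active outside smooth muscle, so that Cre may act in other cells, and Tagln-Cre mice without floxed Smyd2 are not among the libraries. The sample labels describe cells at passage 6 in medium with 10% serum, whereas the methods describe passage 4 and overnight starvation, so the culture state behind these values is uncertain. The study has a general statement about independent experiments, but neither source says for these libraries whether they were separate animals or cultures. The p-values measure the spread between these libraries, which may be technical.

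NRF2, the protein of Nfe2l2, is a basic leucine zipper factor that is bound by KEAP1 and degraded in unstressed cells. Oxidants and electrophiles release it, and it then pairs with small MAF proteins on antioxidant response elements and raises transcription of genes for glutathione synthesis, the thioredoxin system, quinone reduction and heme breakdown. In vascular smooth muscle this program is known for limiting oxidative stress, and heme oxygenase-1 is known for restraining VSMC proliferation.

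Expression was given as FPKM, fragments of a gene scaled to its transcript length and to the mapped fragments of the library, and the low values of the table fitted about 17350000 to 20450000 fragments per library. Values are given in the order of replicates 1, 2 and 3. Smyd2 (gene ID 226830) was at 7.87, 3.10 and 3.0 FPKM for Smyd2 fl/fl against 1.67, 0.40 and 0.80 FPKM for Smyd2 SMC-/-. Every Smyd2 SMC-/- library was below every Smyd2 fl/fl library. These values cover the whole gene and can include RNA from outside exon 2. The log2 fold change was -1.48 (SE 0.389), with an adjusted p of 0.105 in limma, and of 0.0189 with the block, a term in the model for the replicate number. A gene is called here where its p, adjusted over all 12565 genes tested, is under 0.05. Exons of Smyd2 overlap those of Gm37422 on the opposite strand, and reads of the pair cannot be told apart where the strand was not used. Log2 fold changes here are Smyd2 SMC-/- minus Smyd2 fl/fl on log2(FPKM + 1), which understates changes of low genes.

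The libraries differed by replicate number as well as by genotype. The first principal component of the 12565 genes, 50.2% of the variance, placed replicate 1 of each group apart from replicates 2 and 3, and the second, 33.1%, placed the genotypes apart. Neither component held only one division, as the first also differed between genotypes within each same-numbered pair and the second also set replicate 1 apart within each group. Several of the antioxidant genes showed the same division, and each is therefore given per library and per same-numbered pair below.

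The smooth muscle label was compared with 10 marker genes. Acta2, smooth muscle α-actin, was at 761, 682 and 683 FPKM for Smyd2 fl/fl against 201, 268 and 262 FPKM for Smyd2 SMC-/-, and Tagln was between 12.5 and 87.3 FPKM. Myh11, the smooth muscle myosin heavy chain, did not exceed 0.22 FPKM, Myocd did not exceed 0.48 FPKM and Des did not exceed 0.22 FPKM, so that defining markers of contractile cells were close to 0 in both genotypes. The 10 markers summed to 1523, 1283 and 1297 FPKM for Smyd2 fl/fl against 575, 775 and 747 FPKM for Smyd2 SMC-/-. Acta2 was the most abundant in Smyd2 fl/fl and fell (log2 fold change -1.55, adjusted p = 0.00803 in limma), and Cald1 was the most abundant in Smyd2 SMC-/- cells. Cald1 was called lower with the block only (adjusted p = 0.0757 without and 0.0488 with it). Acta2 and Cald1 made up most of each sum and were lower without overlap. In the other tested markers the groups overlapped, although 6 of the 7 tested had a log2 fold change below 0. Lmod1 was lower in replicate 1 but higher in replicates 2 and 3 (3.28, 2.71 and 2.83 against 1.22, 5.44 and 6.02 FPKM). Tagln was higher in replicate 2 only (80.5, 79.1 and 70.3 against 12.5, 87.3 and 57.1 FPKM). The Acta2 call was lost without Smyd2 fl/fl replicate 2 (adjusted p = 0.0541), Smyd2 fl/fl replicate 3 (0.0615) or Smyd2 SMC-/- replicate 3 (0.0533).

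Other cell types were followed with lists of 10 markers each. Of 9 endothelial markers in the table, Cdh5 and Tie1 did not exceed 0.01 FPKM, and the summed level of 171, 86.2 and 90.0 FPKM for Smyd2 fl/fl against 96.1, 75.4 and 74.4 FPKM for Smyd2 SMC-/- was mostly Eng, which is not particular to endothelium. The other tested marker, Kdr, was at 0.47, 0.58 and 0.84 against 0.96, 5.15 and 2.96 FPKM, higher without overlap but not called (log2 fold change 1.16, adjusted p = 0.186 in limma and 0.077 with the block). Pecam1, too low to be tested, went the other way without overlap (0.56, 0.88 and 0.92 against 0.12, 0.18 and 0.00 FPKM). Macrophage markers summed to 42.7, 30 and 26.7 against 40.9, 18.4 and 22.9 FPKM, with Cd14 the most abundant. Csf1r went the other way, at 0.58, 0.53 and 0.48 against 1.66, 1.42 and 1.14 FPKM, without overlap and not called (log2 fold change 0.65, adjusted p = 0.102 in limma and 0.0565 with the block). Ptprc, Adgre1 and Itgam did not exceed 0.02 FPKM. No endothelial or macrophage marker was called with or without the block in limma (1 of each list at an unadjusted p under 0.05 without it). The 7 adipocyte markers in the table summed to 23.2, 27.2 and 25 against 139, 12.5 and 15.2 FPKM. The high sum in Smyd2 SMC-/- replicate 1 was mostly Fabp4 at 119 FPKM, which did not exceed 6.19 FPKM in the other libraries, while Adipoq did not exceed 0.09 FPKM, and only Lipe was called, lower, with the block (adjusted p = 0.231 without and 0.0418 with it). Pparg was lower without overlap and not called (4.50, 8.0 and 6.87 against 3.84, 2.11 and 1.88 FPKM, adjusted p = 0.107 and 0.0865).

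As a sum, fibroblast and adventitial markers were abundant in every library, although Dpep1 did not exceed 0.4 FPKM. They summed to 898, 1791 and 1708 FPKM for Smyd2 fl/fl against 2368, 2112 and 1512 FPKM for Smyd2 SMC-/-, led by the collagen gene Col1a1, which cultured VSMCs also express. Their 9 tested genes had a median log2 fold change of -1.09, with 4 above 0 and 5 below. In limma 5 had an unadjusted p under 0.05, against 20.3% of all genes. With the block 3 were called, all lower, against 10.4% of all genes. The collagen genes Col1a1 (362, 444 and 491 against 1333, 831 and 522 FPKM) and Col1a2 (235, 428 and 433 against 954, 709 and 474 FPKM) were higher without overlap. Each had a log2 fold change of 0.96 and was not called (adjusted p = 0.186 for each in limma, 0.139 and 0.156 with the block). Dpt, a dermatopontin gene, fell from 144, 90.3 and 65.5 FPKM to 3.31, 1.15 and 0.63 FPKM (log2 fold change -5.28, adjusted p = 0.00417 in limma). Cd34 (adjusted p = 0.0669 without and 0.0269 with the block) and Ly6a (0.552 and 0.0404) were called lower with the block only. Pdgfra (18.1, 31.9 and 29.8 against 11.8, 4.85 and 7.10 FPKM) was lower without overlap and not called (0.0601 and 0.0584). Dcn, the decorin gene, divided the replicates, with 13.9 and 25.6 FPKM in replicate 1 of Smyd2 fl/fl and Smyd2 SMC-/- and 257 to 383 FPKM in the other 4 libraries. The methods describe smooth muscle α-actin staining of each batch, with a purity above 95%, but give no result for these libraries. A different share of cell types and a different level per cell cannot be told apart in these bulk samples, and the part of these markers in the results below was not tested.

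The antioxidant response element contains the core TGACNNNGC. The set of RefSeq promoters used here (build GRCm38.p6, 250 bases before to 50 bases after a start) held 7 of the 10 genes, with 10 sequences in all. It had no entry for Hmox1, Gclc and Gsta4, which does not mean that RefSeq lacks them. Both strands were searched, and 4 of the 10 sequences held the core (Nfe2l2, Gclm, Srxn1 and 1 of 3 Txnrd1 starts) against 4071 of all 32851 promoters (12.4%) and 14.4% of the 12109 promoters of tested genes. The windows of Nfe2l2 (minus strand, chr2:75704885-75704913), Gclm (minus strand, chr3:122245413-122245441) and Txnrd1 (minus strand, chr10:82859104-82859132) are shown because the log2 fold changes of these genes differ in direction, with the core in capitals and 10 bases on each side.
Nfe2l2: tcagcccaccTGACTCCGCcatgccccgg
Gclm: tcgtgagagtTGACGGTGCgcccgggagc
Txnrd1: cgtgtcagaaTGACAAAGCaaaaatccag
The bases of the cores farthest upstream lay at positions -240, -134 and -92 relative to the start. The cores of Gclm and Txnrd1 were on the strand opposite to the gene, so these positions are the last bases of their printed cores. The AP-1 motif TGACTCA overlaps the core where the free bases are TCA, and none of the 3 windows contained it. No core was present in the sequences of Nqo1, Slc7a11 and Gstm1, which says only that these letters are not in these windows.

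The 10 genes had no common direction. Hmox1 was 2.06 times as high in Smyd2 SMC-/- as in Smyd2 fl/fl cells by mean FPKM, whereas Txnrd1 was at 0.642 times and Gstm1 at 0.569 times the Smyd2 fl/fl mean. The catalytic subunit gene of glutathione synthesis, Gclc, and its modifier subunit gene, Gclm, had log2 fold changes of opposite sign. In limma without the replicate number, 0 of the 10 genes passed an adjusted p of 0.05, where 2.44% of all 12565 genes did (306, with 154 higher and 152 lower), and 3 of the 10 had an unadjusted p under 0.05, against 20.3% of all genes. Once replicate number was blocked, 2 of the 10 were called, Hmox1 higher and Txnrd1 lower, against 10.4% of all genes (1312, with 593 higher and 719 lower), and all 306 calls of the first fit were among them. In 4 of the 10 genes the libraries of the groups did not overlap, Hmox1 and Slc7a11 higher and Txnrd1 and Gstm1 lower, while 28.1% of all genes did not overlap (13.1% higher and 15.0% lower). Slc7a11 passed the filter only through its Smyd2 SMC-/- level, so its lack of overlap is not read as a result. After rescaling to TPM, 3 of the 10 genes did not overlap, as Gstm1 then overlapped, against 28.2% of all genes. These shares are too close to the background for so few genes to be read as a result about the group.

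The median log2 fold change of the 10 genes was -0.35, beside -0.02 over all tested genes, with 4 genes above 0 and 6 below. Rescaling each library to the same sum (TPM) raised the median of all genes by 0.11, from -0.018 to 0.0951, and its 346 calls split into 247 higher and 99 lower. After it 0 of the 10 genes were called, against 2.75% of all genes, and none of the 10 changed sign under TPM or quantile normalization. Relative to the median of all genes, Hmox1 stood at 1.08 as deposited and 1.10 after rescaling, Txnrd1 at -0.59 in each and Gstm1 at -0.75 and -0.74.

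**Figure D1:**
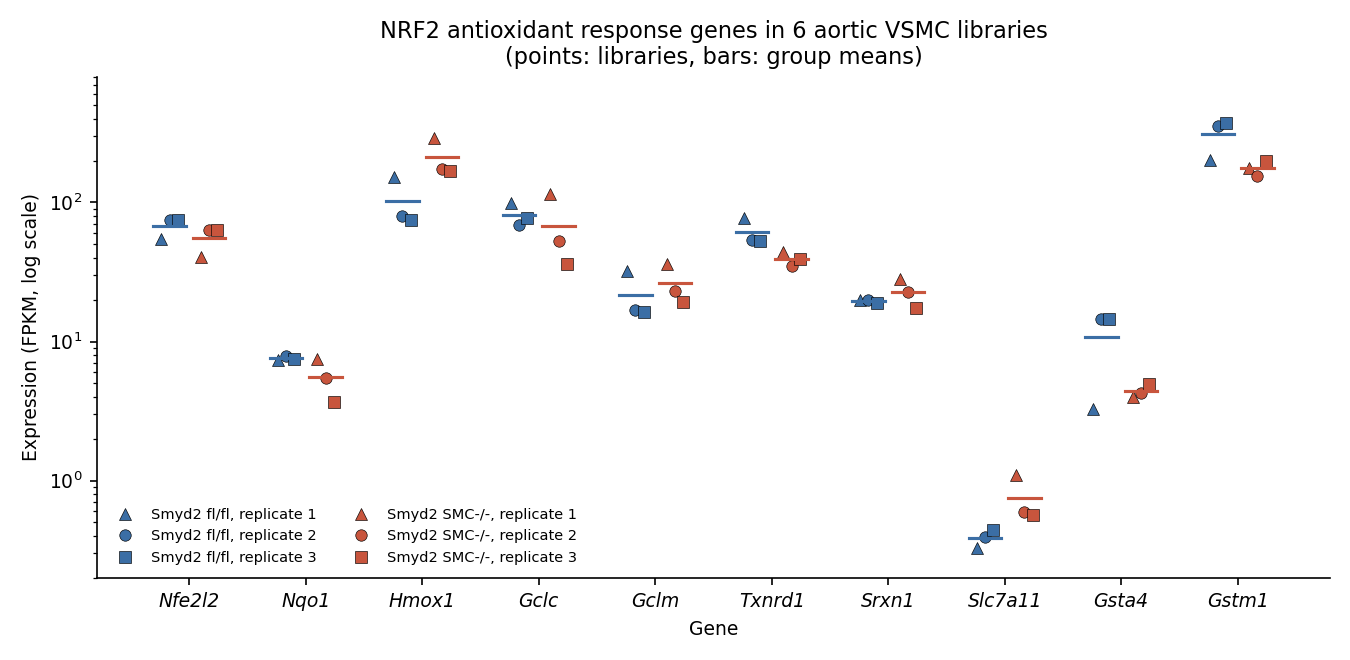
FPKM (log scale) of the 10 genes in each library, Smyd2 fl/fl in blue and Smyd2 SMC-/- in red, with symbols for the replicate number and bars for group means. Hmox1 lies higher in every Smyd2 SMC-/- library than in the Smyd2 fl/fl libraries, and Txnrd1 and Gstm1 lie lower (Gstm1 overlaps after rescaling to TPM), while replicate 1 (triangles) stands apart in several genes.

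Nfe2l2 (gene ID 18024, chr2:75675513-75704641, minus strand, GRCm38) encodes NRF2 itself. Its RNA was at 54.4, 74.6 and 74.6 FPKM for Smyd2 fl/fl against 40.8, 63.6 and 62.9 FPKM for Smyd2 SMC-/-. Replicate 1 was the lowest library of each group, the groups overlapped, and the Smyd2 SMC-/- library was lower in 3 of 3 same-numbered pairs, with log2 differences of -0.41, -0.23 and -0.24. The difference did not pass the test (log2 fold change -0.29, SE 0.223, adjusted p = 0.534 in limma). With single libraries left out the log2 fold change was -0.44 to -0.09. NRF2 is controlled mainly through degradation of the protein, which RNA levels do not measure.

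Hmox1 (gene ID 15368, chr8:75093621-75100589, plus strand) encodes heme oxygenase-1, which breaks heme down to biliverdin, iron and carbon monoxide. It was at 154, 80.3 and 74.4 FPKM for Smyd2 fl/fl against 292, 174 and 167 FPKM for Smyd2 SMC-/-. Replicate 1 was the highest of each group, at 1.99 and 1.71 times the mean of the other replicates, and the lowest Smyd2 SMC-/- library was still above the highest Smyd2 fl/fl library. The means were 103 ± 44.1 and 211 ± 70.3 FPKM (SD, n = 3), and the pairs differed by 0.92, 1.11 and 1.16 on the log2 scale. Its log2 fold change of 1.06 had an SE of 0.341 and an adjusted p of 0.155 in limma without the replicate number, and an SE of 0.102 and an adjusted p of 0.0134 with the block. In replicates 2 and 3 alone it was 1.13 (adjusted p = 0.000382). The exact permutation test of 3 against 3 libraries gave p = 0.1 (two-sided), the smallest it can give.

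Glutathione synthesis was represented by 3 genes. Gclc (gene ID 14629, chr9:77754535-77794485, plus strand) encodes the catalytic subunit of glutamate-cysteine ligase, the rate-limiting enzyme of the pathway. Its values were 99.5, 69.4 and 76.7 FPKM for Smyd2 fl/fl against 115, 52.7 and 35.9 FPKM for Smyd2 SMC-/-. The highest and the lowest of the 6 libraries both belonged to Smyd2 SMC-/-, so the groups overlapped, and the pairs differed by 0.21, -0.39 and -1.08 on the log2 scale. Without replicate 1 of both groups the log2 fold change was -0.73 with an adjusted p of 0.0224 in limma, against -0.42 and 0.638 with all 6 libraries. Single libraries set its size, as it was -0.05 (adjusted p = 0.976) without Smyd2 SMC-/- replicate 3 and -0.88 (adjusted p = 0.089) without Smyd2 SMC-/- replicate 1.

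Gclm (gene ID 14630, chr3:122245557-122270732, plus strand), the modifier subunit that lowers the ligase's need for glutamate, ran the other way. It was at 32.1, 16.8 and 16.3 FPKM for Smyd2 fl/fl against 36.1, 23.2 and 19.3 FPKM for Smyd2 SMC-/-. Replicate 1 was highest in each group, at 1.94 and 1.70 times the other replicates, so the groups overlapped although the Smyd2 SMC-/- library was higher in 3 of 3 pairs, by 0.17, 0.44 and 0.23. A log2 fold change of 0.28 was not called without the block (SE 0.329, adjusted p = 0.701) or with it (SE 0.103, adjusted p = 0.142), and was 0.03 to 0.58 with single libraries left out. Exons of Gclm overlap Gm17494 on the opposite strand and Gm6061 on the same strand, and its values may include their reads.

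Slc7a11 (gene ID 26570, chr3:49892526-50443614, minus strand) encodes the cystine transporter subunit xCT, which supplies cysteine for glutathione. It was nearly silent, at 0.33, 0.39 and 0.44 FPKM for Smyd2 fl/fl against 1.09, 0.59 and 0.57 FPKM for Smyd2 SMC-/-, about 56 to 173 fragments per library at a transcript length of 9223 bases. All Smyd2 SMC-/- libraries were above all Smyd2 fl/fl libraries, with replicate 1 farthest from the rest. Its mean passed the filter of 0.5 FPKM only through the Smyd2 SMC-/- group, so that a difference had to be present. On the log2 scale the fold change was 0.32 (SE 0.188, adjusted p = 0.397 in limma), 0.76 with a pseudocount of 0.1 in place of 1 (adjusted p = 0.389), and 0.19 (adjusted p = 0.468) without Smyd2 SMC-/- replicate 1.

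The thioredoxin system was represented by Txnrd1 and Srxn1. Txnrd1 (gene ID 50493, chr10:82833951-82897712, plus strand) encodes the cytosolic thioredoxin reductase, which passes electrons from NADPH to thioredoxin. Its level was 77.4, 54.2 and 53.0 FPKM for Smyd2 fl/fl against 44.0, 35.2 and 39.3 FPKM for Smyd2 SMC-/-. No library of one group reached the range of the other, and the pairs differed by -0.80, -0.61 and -0.42 on the log2 scale. Means were 61.5 ± 13.8 and 39.5 ± 4.42 FPKM (SD, n = 3). Its log2 fold change of -0.61 had an adjusted p of 0.136 in limma without the replicate number (SE 0.184), and of 0.0395 with the block (SE 0.111). In replicates 2 and 3 alone it was -0.52 (adjusted p = 0.00936). The exact permutation p was 0.1, the smallest possible.

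Srxn1 (gene ID 76650, chr2:152105516-152111376, plus strand) encodes sulfiredoxin, which restores overoxidized peroxiredoxins. It was at 19.8, 19.7 and 19.0 FPKM for Smyd2 fl/fl against 28.4, 22.9 and 17.3 FPKM for Smyd2 SMC-/-. The Smyd2 fl/fl libraries lay within 1 FPKM of each other and inside the wider range of the Smyd2 SMC-/- libraries. A log2 fold change of 0.19 (SE 0.187, adjusted p = 0.634) did not pass the test, and pairs differed by 0.50, 0.20 and -0.13. With single libraries left out it was 0.03 to 0.37.

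Nqo1 (gene ID 18104, chr8:107388225-107403206, minus strand), the quinone reductase often used as a readout of NRF2, was expressed at a low level. It was at 7.31, 7.92 and 7.54 FPKM for Smyd2 fl/fl against 7.55, 5.44 and 3.66 FPKM for Smyd2 SMC-/-. Replicate 1 of Smyd2 SMC-/- lay within the Smyd2 fl/fl range and the other Smyd2 SMC-/- libraries below it. The log2 fold change was -0.43 (SE 0.233, adjusted p = 0.357 in limma) over all libraries and -0.67 (adjusted p = 0.0212) in replicates 2 and 3 alone. Without Smyd2 SMC-/- replicate 3 it was -0.21 (adjusted p = 0.736).

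The 2 glutathione S-transferase genes, whose enzymes join glutathione to reactive compounds, were lower in Smyd2 SMC-/- cells in replicates 2 and 3. In replicate 1 Gstm1 was lower as well, and Gsta4 was not. Gsta4 (gene ID 14860, chr9:78182774-78209349, plus strand), known for clearing the lipid peroxidation product 4-hydroxynonenal, was at 3.30, 14.6 and 14.6 FPKM for Smyd2 fl/fl against 4.02, 4.24 and 4.93 FPKM for Smyd2 SMC-/-. A single library set its overlap, since Smyd2 fl/fl replicate 1 lay below all Smyd2 SMC-/- libraries and the other Smyd2 fl/fl libraries stood at 4.43 times its level. The log2 fold change was -0.92 (SE 0.501, adjusted p = 0.366 in limma) with all libraries and -1.54 (adjusted p = 0.0156) without Smyd2 fl/fl replicate 1, but -0.61 without Smyd2 fl/fl replicate 2 (adjusted p = 0.646) or 3 (0.658). Leaving out that library called 2 of the 10 genes, Gsta4 and Gstm1, against 2.20% of all genes.

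Gstm1 (gene ID 14862, chr3:108012255-108017973, minus strand) was the most abundant of the 10 genes by the mean of all 6 libraries, ranked 244 of the 12565 tested, although in Smyd2 SMC-/- cells the mean of Hmox1 was higher. It was at 203, 353 and 375 FPKM for Smyd2 fl/fl against 177, 156 and 197 FPKM for Smyd2 SMC-/-. The groups did not overlap in FPKM, although Smyd2 fl/fl replicate 1 came within a few FPKM of Smyd2 SMC-/- replicate 3, and after rescaling to TPM they did (491 in the former and 508 in the latter). Means were 311 ± 93.5 and 177 ± 20.7 FPKM (SD, n = 3). The log2 fold change of -0.77 (SE 0.253) had an adjusted p of 0.165 in limma, 0.0769 with the block and 0.0379 without Smyd2 fl/fl replicate 1, where it was -1.04. It was -0.65 without Smyd2 fl/fl replicate 2 (adjusted p = 0.38) and -0.60 without Smyd2 fl/fl replicate 3 (0.378). Both genes belong to multigene families with similar sequences, and their values are uncertain as far as reads were shared between family members.

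**Figure D2:**
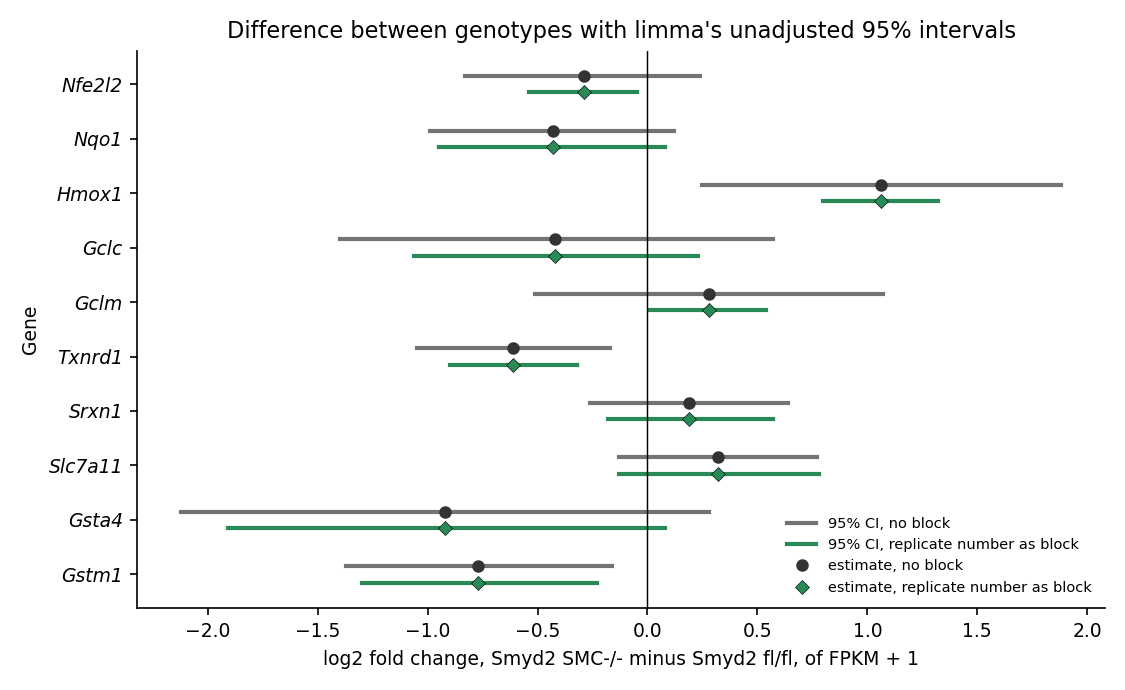
Log2 fold change (Smyd2 SMC-/- minus Smyd2 fl/fl, of FPKM + 1) of each gene with limma's unadjusted 95% interval, without (grey) and with (green) a block for replicate number. The interval of Hmox1 narrows, as its SE goes from 0.341 to 0.102, while those of Slc7a11 and Nqo1 hardly move.

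Over the same-numbered pairs, 3 genes were higher in 3 of 3 pairs (Hmox1, Gclm and Slc7a11) and 3 were lower in 3 of 3 (Nfe2l2, Txnrd1 and Gstm1), and 55.1% of all genes had 1 direction in all pairs. Slc7a11 was tested only because of its Smyd2 SMC-/- level, so its direction is not read as a result. The remaining 4 genes changed direction between pairs. In Nqo1, Gclc and Gsta4 the pair of replicate 1 was above 0, by 0.04, 0.21 and 0.22, and the other pairs were below it. With replicates 2 and 3 alone, 6 of the 10 genes were called, against 29.0% of all genes, with Hmox1 higher and Txnrd1, Gstm1, Gsta4, Gclc and Nqo1 lower. These 4 libraries separated the genotypes without overlap in 9 of the 10 genes, and in 67.6% of all genes. Whether replicate 1 differed from the others in animal, culture or preparation was not tested, and the labels do not say what a replicate number marks.

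**Figure D3:**
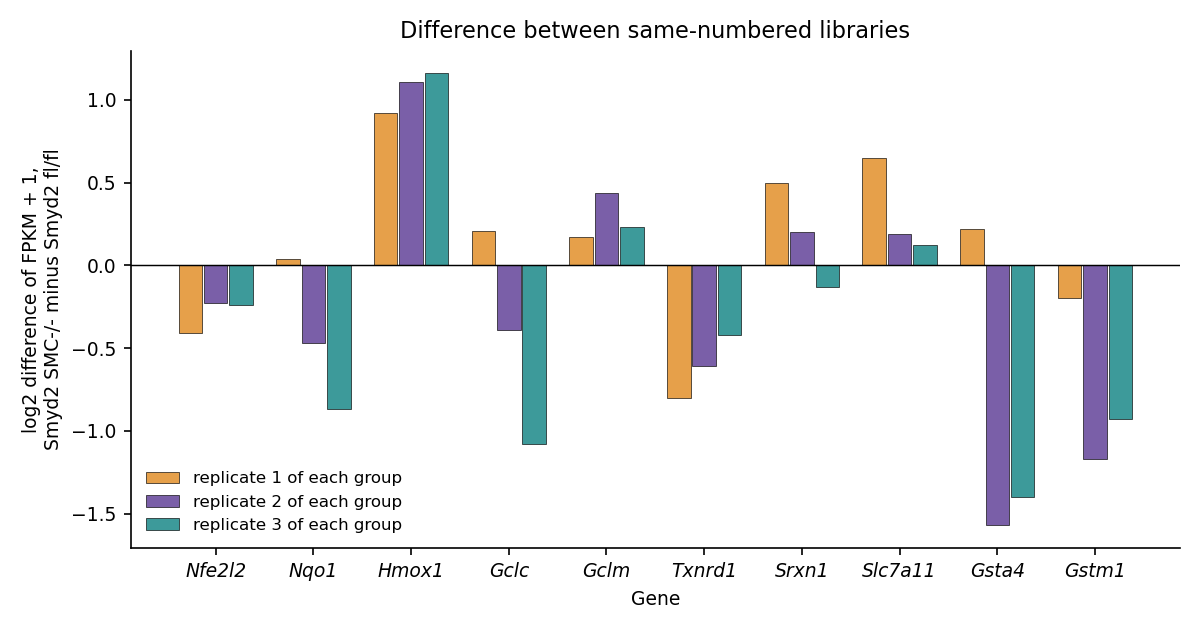
Log2 difference of FPKM + 1 between Smyd2 SMC-/- and Smyd2 fl/fl libraries of the same number, with 3 bars per gene for replicates 1, 2 and 3. Hmox1 differs by 0.92 to 1.16 in all pairs, and Gsta4 by 0.22 in replicate 1 and by -1.57 and -1.40 in the others.

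The proteins that act on NRF2 were examined as a list of 19 genes, of which 18 were tested. Their median log2 fold change was -0.15. Without the block 0 were called (5 at an unadjusted p under 0.05 in limma, against 20.3% of all genes). With it 1 was called, against 10.4% of all genes. That gene was Park7 (DJ-1, which stabilizes NRF2), at 54.7, 51.8 and 42.6 FPKM for Smyd2 fl/fl against 32.9, 33.3 and 32.3 FPKM for Smyd2 SMC-/- (adjusted p = 0.0768 without and 0.0406 with the block). Keap1, the adaptor that sends NRF2 to degradation, was at 14.1, 15.6 and 13.8 FPKM and at 20.8, 17.1 and 17.2 FPKM. Its groups did not overlap, and the log2 fold change of 0.32 was not called (adjusted p = 0.246 in limma, 0.142 with the block). Sqstm1 (p62, which binds KEAP1) was the most abundant of the list at 370, 394 and 368 against 321, 261 and 264 FPKM, again without overlap and not called (adjusted p = 0.143, and 0.0808 with the block). Bach1, which represses Hmox1 at the same DNA elements, was at 7.44, 9.90 and 10.8 against 9.71, 8.04 and 10.2 FPKM, a log2 fold change of 0.00 to 2 decimals (SE 0.179). Among the small MAF partners, Mafg, Mafk and Maff had log2 fold changes of 0.23, 0.19 and -0.28 and overlapping groups, and the related factor Nfe2l1 was at 89.0, 95.2 and 94.8 against 151, 98.6 and 102 FPKM, higher without overlap and not called (adjusted p = 0.419).

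Over the 10 lists of antioxidant and related genes, 132 genes were tested and 4 were called without the block, all lower, against 2.44% of all genes. With the block 21 were called, 3 higher (Ggt7, Ugt1a6a and Mgst2, the last tested only because of its Smyd2 SMC-/- level) and 18 lower, against 10.4% of all genes, and the median log2 fold change of the 132 was -0.13. The 4 were Fth1 and Hmox2 in heme and iron handling and Gsto1 and Gstp1 among the glutathione S-transferases. Each lost its call without Smyd2 fl/fl replicate 2 or 3 or Smyd2 SMC-/- replicate 2 or 3. Their adjusted p-values in limma then lay between 0.133 and 0.223. Fth1 and Gstp1 lost theirs also without Smyd2 SMC-/- replicate 1 (0.0578 for each), and Gsto1 without Smyd2 fl/fl replicate 1 (0.0713). Rescaling to TPM ended the calls of Gsto1 (0.0561) and Hmox2 (0.0545), and quantile normalization those of Fth1 (0.139) and Gstp1 (0.0647). Without the filter Hmox2 alone of the 4 was called (0.0461), and the fit that is not robust lost Fth1 (0.0587) and Gstp1 (0.0528). Every setting kept their sign.

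The 3 heme and iron genes called in either fit were lower in Smyd2 SMC-/- cells, whereas Hmox1 was higher. Fth1, the ferritin heavy chain that stores the iron that heme breakdown releases, fell from 2251, 2940 and 2504 FPKM to 1458, 1404 and 1506 FPKM (log2 fold change -0.81, adjusted p = 0.0437 in limma). Hmox2, the constitutive heme oxygenase, fell from 37.3, 42.6 and 40.3 FPKM to 25.3, 22.8 and 24.4 FPKM (-0.71, adjusted p = 0.038). In both genes every Smyd2 SMC-/- library was below every Smyd2 fl/fl library, and replicate 1 did not stand apart within Smyd2 SMC-/-. Tfrc, the transferrin receptor, was called lower with the block only (17.4, 6.40 and 7.80 against 11.1, 3.24 and 2.98 FPKM, adjusted p = 0.431 without and 0.0364 with it). In all, 12 genes of the list were tested, with a median log2 fold change of -0.15, 4 above 0 and 8 below. Slc48a1 was higher without overlap and not called (109, 136 and 129 against 202, 165 and 143 FPKM). Pir, with overlapping groups and not called, was at 41.6, 67.9 and 57.8 against 47.7, 152 and 226 FPKM.

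Among 16 tested glutathione S-transferase genes other than Gsta4 and Gstm1, 2 were called lower without the block, against 2.44% of all genes, and 4 lower and 1 higher (Mgst2) with it, against 10.4%. Gstp1, the most abundant of the list, fell from 412, 495 and 446 to 278, 294 and 272 FPKM (log2 fold change -0.67, adjusted p = 0.0487 in limma). Its near copy Gstp2 makes the split of reads between them uncertain. Gstp2 was at 0.00, 0.80 and 0.90 against 3.49, 4.36 and 1.96 FPKM, higher without overlap and not called. Gsto1 fell from 172, 170 and 148 to 99.0, 105 and 91.2 FPKM (-0.72, adjusted p = 0.0422). With the block, Mgst3 (adjusted p = 0.0297, and 0.0716 without) and Gstm6 (0.0496, and 0.0641 without) were called lower and Mgst2 higher (0.0407, and 0.12 without). Mgst2 was at 0.00, 0.78 and 0.20 against 1.05, 1.76 and 1.79 FPKM and passed the filter only through its Smyd2 SMC-/- level, so that a difference had to be present and its call is not read as a result. Gstm2, a neighbour of Gstm1 in the same family, was at 117, 211 and 208 against 164, 194 and 200 FPKM and showed no such gap.

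Of 19 tested genes of glutathione synthesis and use, 0 were called without the block (4 at an unadjusted p under 0.05) and 3 with it. Ggt7, of the gamma-glutamyltransferase family, was higher at 25.9, 8.62 and 8.5 FPKM in Smyd2 SMC-/- against 4.14, 2.57 and 3.19 FPKM in Smyd2 fl/fl libraries (log2 fold change 1.67, adjusted p = 0.096 without and 0.0301 with the block). Gpx4, the peroxidase of lipid hydroperoxides and the most abundant of the list, was lower at 198, 218 and 188 against 279, 376 and 291 FPKM (-0.64, adjusted p = 0.0865 and 0.0342). Glrx, a glutaredoxin, was lower as well (-0.66, adjusted p = 0.184 and 0.0407). The median log2 fold change of the list was -0.06.

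Of 15 tested genes of the thioredoxin and peroxiredoxin system other than Txnrd1 and Srxn1, the block gave 2 calls, both lower, and the fit without it gave 0 (1 at an unadjusted p under 0.05). They were the mitochondrial peroxiredoxin Prdx3 (47.1, 60.1 and 53.8 against 35.4, 32.8 and 34.2 FPKM, adjusted p = 0.062 without and 0.0416 with the block) and Sesn1 (log2 fold change -0.77, adjusted p = 0.365 and 0.0273). Prdx1, the most abundant of the list at 214, 375 and 314 against 193, 279 and 244 FPKM, was not called (adjusted p = 0.541 and 0.121). Among 10 genes of NADPH supply, Pgd of the pentose phosphate pathway was called lower with the block only (-0.59, adjusted p = 0.247 and 0.0407), and G6pdx, the most abundant over all 6 libraries, was not called (-0.29, adjusted p = 0.436 and 0.156).

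The 18 tested genes of quinone, aldehyde and drug detoxification had a median log2 fold change of -0.20, with 0 calls without the block (6 at an unadjusted p under 0.05, against 20.3% of all genes) and 3 with it, against 10.4%. The same shares of all genes apply to the counts of the other lists. Akr1c13, an aldo-keto reductase, was at 4.28, 9.92 and 6.98 against 0.35, 2.36 and 1.81 FPKM (-1.72, adjusted p = 0.083 without and 0.0119 with the block). The glutathione conjugate exporter Abcc1 was at 26.0, 28.0 and 29.0 against 13.3, 17.6 and 17.4 FPKM (-0.75, adjusted p = 0.0562 and 0.0253). Ugt1a6a, a glucuronosyltransferase, was higher in 3 of 3 pairs with overlapping groups (0.76, adjusted p = 0.548 and 0.0239), and shares exons with other genes of its locus. Ephx1, the most abundant over all 6 libraries, had a log2 fold change of 0.06.

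The 5 superoxide dismutase and catalase genes and the 8 tested genes of NADPH oxidases and other oxidases had 0 calls in limma with or without the block (0 and 0 at an unadjusted p under 0.05 without it). Sod1, the most abundant dismutase gene, was at 302, 339 and 286 against 326, 183 and 200 FPKM, so that replicate 1 of Smyd2 SMC-/- lay within the Smyd2 fl/fl range. Nox1 did not exceed 0.08 FPKM and Nox4 did not exceed 1.79 FPKM, and Maoa, a monoamine oxidase, had the highest mean of the oxidases over all 6 libraries (adjusted p = 0.262). Of 14 genes of the amino acid response to ATF4, a factor that also drives Slc7a11, 0 were called without the block (4 at an unadjusted p under 0.05) and 3 with it, all lower. They were the serine and glycine enzymes Shmt2 (-0.97, adjusted p = 0.136 and 0.0242) and Psat1 (-0.72, adjusted p = 0.192 and 0.0275) and the asparagine synthetase Asns (-0.50, adjusted p = 0.272 and 0.0434). The list as a whole was not lower, with a median log2 fold change of 0.09 and 8 genes above 0 and 6 below. Among its genes above 0, Phgdh of serine synthesis (46.4, 34.7 and 31.8 against 53.8, 51.1 and 46.7 FPKM, adjusted p = 0.221 and 0.072) and Vldlr (0.03, 0.20 and 0.22 against 0.63, 5.37 and 3.96 FPKM, adjusted p = 0.13 and 0.0504) did not overlap and were not called. Vldlr too passed the filter only through Smyd2 SMC-/-. Atf4 itself, the most abundant of the list, was highest in replicate 1 of each group (263, 128 and 118 against 390, 137 and 136 FPKM), the same division as in Hmox1 and Gclm.

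**Figure D4:**
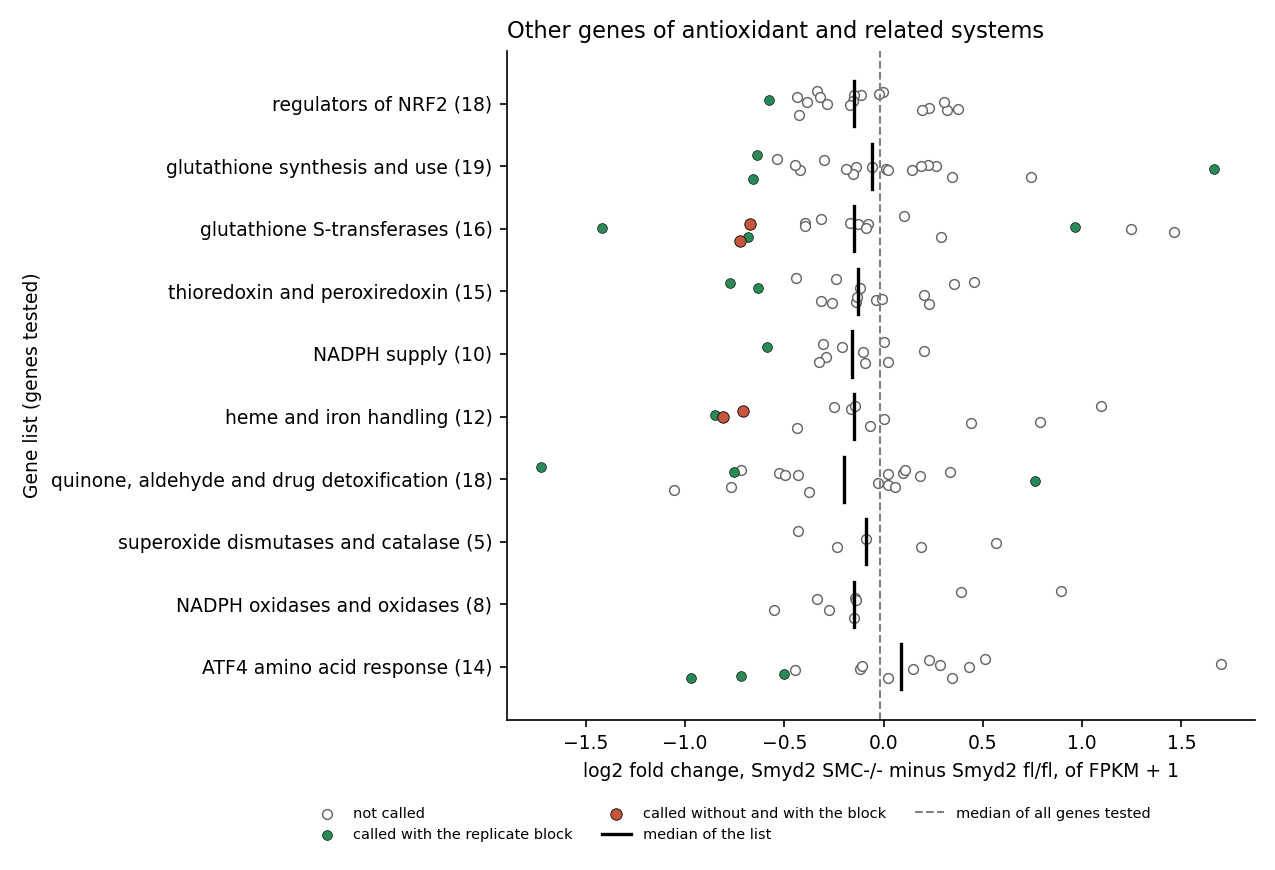
Log2 fold change of FPKM + 1 (Smyd2 SMC-/- minus Smyd2 fl/fl) of each tested gene in 10 lists, with the number tested in brackets. Red points were called with and without the replicate block and green points with the block only. Black lines are list medians and the dashed line is the median of all genes. Most called genes lie below 0. Over all genes, 719 of 1312 calls were lower with the block, and 152 of 306 without it.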

How the data were processed

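RNA from 3 Smyd2 fl/fl and 3 Smyd2 SMC-/- VSMC samples was sequenced, and the authors deposited FPKM of 18112 genes, computed with RSEM after read filtering (SOAPnuke) and mapping (HISAT, Bowtie2) (Bowtie2 and RSEM are also in the submitters' processing notes). Tool versions, genome build and use of strand are not given in the sources used here. Columns were assigned to groups by the sample labels.

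The 12565 genes whose mean reached 0.5 FPKM were tested on log2(FPKM + 1) by limma 3.58.1 (R 4.3.3, eBayes with trend and robust) with Benjamini-Hochberg adjustment over all genes. Calls are at an adjusted p under 0.05. The fit was tested on simulated data. Single genes were also compared with a two-sided exact permutation test (SciPy 1.17.1, Python 3.11.15), whose smallest p is 0.1. Figures used matplotlib 3.10.9, and tables numpy 2.4.6 and pandas 2.3.3.

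The replicate numbers come from the labels. Deviations from the group means correlated at 0.61, 0.46 and 0.53 between same-numbered libraries, so the numbers were taken to pair them, and the fit with the number as a block is given where it changes a call. Replicates 2 and 3 of opposite groups also correlated (0.46 and 0.44), so the division is mainly replicate 1 against the others. The pairing of replicates 2 and 3 by number is therefore an assumption, in the block and in the counts over pairs.

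Named genes were the 10 genes, Smyd2, 7 regulators (Keap1, Bach1, Mafg, Mafk, Maff, Nfe2l1 and Sqstm1) and, in each of 15 lists, up to 6 called genes with the smallest adjusted p in the block fit and the most abundant gene. Gm17494, Gm6061, Gm37422, Dcn, Col1a2, Kdr, Csf1r, Pecam1, Pdgfra, Pparg, Phgdh, Vldlr, Gstm2, Gstp2, Nox1 and Nox4 were chosen after their values were seen. So were Slc48a1, Pir and the other markers named only by level. The 10 genes and the lists were chosen with earlier results of these data known. Depth was estimated from low values among 4336 genes with 1 transcript of known length. Of the 258 to 303 values used per library, 67.2% to 73.3% lay within 0.15 of a whole fragment (30% by chance). The table gives no positions. Those printed are from GENCODE M21 (GRCm38), matched by RefSeq transcript. Alternatives were another pseudocount, no filter, blocks, replicates 2 and 3 alone, TPM, quantile normalization, a fit that is not robust, and leaving out each library.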

Additional observations from a re-analysis of the deposited data

How the results depend on the processing

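The log2 fold changes of the 10 genes kept their sign under all 14 alternatives (140 values, 13 of them newly past the threshold and 0 reversed). With single libraries left out they were 0.81 to 1.39 for Hmox1, 0.03 to 0.58 for Gclm, 0.19 to 0.40 for Slc7a11, 0.03 to 0.37 for Srxn1, -0.44 to -0.09 for Nfe2l2, -0.88 to -0.05 for Gclc, -0.70 to -0.44 for Txnrd1, -0.65 to -0.21 for Nqo1, -1.54 to -0.61 for Gsta4 and -1.04 to -0.60 for Gstm1. Of the 10 genes, 0 were called without the block in limma (3 at an unadjusted p under 0.05). With the replicate block 2 were called, blocking replicate 1 against the others called 3 (Gstm1 in addition, against 20.3% of all genes), and in replicates 2 and 3 alone 6. All genes called numbered 306 in the first fit, 1312 with the replicate block, 2550 with the block for replicate 1 and 3650 in replicates 2 and 3 alone. Of the 158 tested genes of all 15 lists, markers included, 6 were called in the first fit, against 2.44% of all genes. The replicate block called 27 of them, against 10.4%, and the block for replicate 1 called 44, against 20.3%. In replicates 2 and 3 alone 68 were called, against 29.0%. With no filter on low values 3 of 190 were called, against 247 of all 18112 genes. Non-overlapping groups were seen in 4 of the 10 genes, and in 9 in replicates 2 and 3 alone (67.6% of all genes), where fewer libraries make overlap rarer. Both counts include Slc7a11, which passed the filter only through its Smyd2 SMC-/- level. Leaving out one library in turn gave 0 to 2 of the 10 genes called (2 without Smyd2 fl/fl replicate 1, Gsta4 and Gstm1), 34 to 686 of all genes (34 without Smyd2 fl/fl replicate 2, 36 without Smyd2 fl/fl replicate 3, 55 and 39 without Smyd2 SMC-/- replicates 2 and 3, 686 without Smyd2 SMC-/- replicate 1), 1 to 16 of the list genes and 4 to 7 of the 10 without overlap (31.3% to 51% of all genes). Fewer libraries leave fewer degrees of freedom, and the cause of the higher counts was not tested. The block changed no other call among the genes named. A fragment was worth 0.0244 to 0.0288 FPKM at 2000 bases, so that Nox1 and markers near 0 rest on few fragments. Small differences in them were not detectable at this depth. Slc7a11 rested on about 56 to 173 fragments per library, at its transcript length of 9223 bases.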
